A study of Homo sapiens with 9 samples.

Results

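Short units are transcription start sites with little nascent RNA signal, on average, from 15 to 50 kb behind the start. They were chosen by their own signal in mock-treated cells: the mean of the 3 mock libraries had to be at least 2 per bin from 0 to 5 kb, and the mean from 15 to 50 kb had to stay under 10% of that. The rule found 724 members among 7936 identifiers present in all 9 libraries (9.12%), or 24.4% of the 2973 starts with a mock signal of at least 2, called active here. The other 2249 active starts serve as the comparison. Just inside the limits, 3 members had 9.97%, 9.97% and 9.99% of their start signal behind them, and the 3 starts just outside had 10.0%, 10.02% and 10.03%. The 3 weakest members had mock signals of 2.04, 2.04 and 2.05, and the 3 strongest starts left out for their level had 1.97, 1.98 and 1.99.

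The libraries are BrU-seq from RPE1, an hTERT-immortalised human retinal pigment epithelium line, and every line is labelled iCas9 p53/puro-dKO, so all of them, WT included, lack p53 and carry Cas9. The lines were an STK19 knockout (KO), that knockout with an STK19-TY transgene (rescue), and cells with intact STK19 (WT). Cells were mock-treated or given 12 J/m2 of UV-C, and a 30 min pulse of 2 mM bromouridine labelled new RNA up to 3 h or 16 h after irradiation. There was 1 library for each line and condition, KO and rescue share a knockout, and the labels do not say how many clones or cultures were used.

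RNA polymerase II starts at a promoter, runs through the gene and is released after the 3' end has been processed. UV-C leaves lesions in the template strand that halt it, so a long gene is more likely to hold a block than a short one, and transcription-coupled repair removes lesions from transcribed strands. Short genes include many of the fast-reacting stress genes and the histone genes. Which of the members are such genes is not known here, because none of the identifiers could be paired with a gene symbol (0 matches); the markers of pigment epithelium were for the same reason not checked, and no sequence is given.

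Values are the deposited coverage per 200-bp bin, scaled to similar library totals, so every level below is relative to the rest of its library, and a fall common to all transcription would not be visible. The smallest step of a library gives its relative depth. Depth was lowest in KO at 3 h, and WT at 16 h was 13.1 times as deep, so KO values at 3 h are the least precise. In every line the 16 h library was deeper than the 3 h library. As multiples of KO at 3 h, depth was 2.59 in KO at 16 h. It was 2 at 3 h and 8.82 at 16 h in rescue, and 6.42 and 13.1 in WT. The level of a unit is its mean signal per bin from 0 to 10 kb. Log2 changes are of the level plus 0.1, which understates changes of weak units.

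In mock cells the members spanned a wide range of start signal, from 2.04 to 1243, with quartiles of 5.37, 11.4 and 25.03. The median of the other active starts was 6.95. A typical member faded over several kb and did not stop at one point: the median signal from 5 to 10 kb was 36.4% of that from 0 to 5 kb, and from 10 to 15 kb it was 16.1%. From 15 to 50 kb it was 2.88%, where the other active starts had 31.9%; the rule sets that gap. In 114 members the mean signal from 5 to 10 kb was already under 10% of the start signal, and these are said below to end within 5 kb. The stretch from 10 to 15 kb was not checked for them. In a further 187 the mean from 10 to 15 kb was under 10% (ended within 10 kb). The other 423 still had 10% or more there and are said below to taper. Where their signal ended was not checked.

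Quiet behind did not mean isolated. From 50 to 15 kb upstream, 427 members (59.0%) also had under 10% of their start signal, against 1183 of the other active starts (52.6%), and 297 members had a neighbour or other transcription there. Only 352 members (48.6%) were quiet upstream, behind and from 50 to 100 kb. For this reason they are called short units, not isolated units. More signal lay from 5 to 1 kb upstream than in the first 5 kb for 73 members and 229 other active starts. Some members share their signal: 39 members fell in 19 sets with overlapping windows, and 10 of the 21 overlapping pairs ran in mirrored orientation, so the signal does not separate strands.

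**Figure D1:**
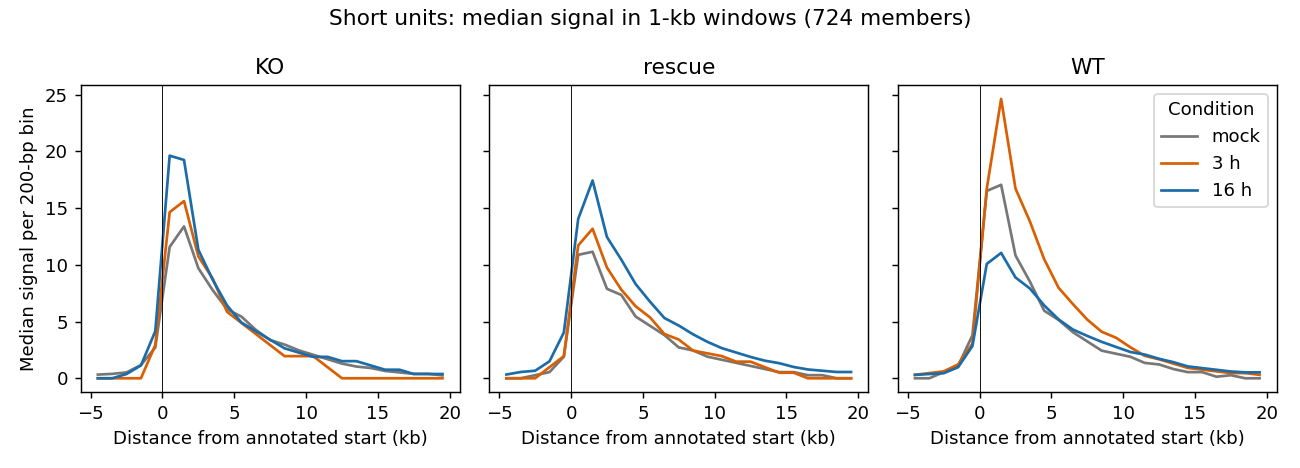
Median signal per 200-bp bin of the 724 short units in 1-kb windows from 5 kb before to 20 kb after the annotated start, for KO, rescue and WT, in mock, 3 h and 16 h libraries. In WT the 3 h curve peaks highest (24.6 from 1 to 2 kb) and the 16 h curve lowest (11.1). In KO and rescue the 16 h curve peaks highest, at 19.6 in KO from 0 to 1 kb and at 17.4 in rescue from 1 to 2 kb. These heights are on the deposited scale, and the order of the times in a line depends on the scaling of the libraries.

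On the deposited scale the median level of short units took a different order of times in WT than in KO and rescue. In KO the median level was 8.23 in mock, 9.13 at 3 h and 10.3 at 16 h. In rescue it was 6.92, 8.03 and 10.1 in the same order, and in WT it was 9.18, 12.9 and 7.57. Medians in KO and rescue were thus highest at 16 h and the WT median was highest at 3 h. The mean level, which the strongest units dominate, was on the deposited scale highest at 3 h and lowest at 16 h in every line. It was 23.6, 26.3 and 21.8 in KO, 22.3, 25.5 and 21.7 in rescue and 21.8, 27.7 and 14.7 in WT, in the order mock, 3 h and 16 h. With trimmed-mean scaling, an alternative for the line values that was chosen after seeing the data, the median too was lowest at 16 h in every line, at 8.69 in KO, 8.63 in rescue and 7.49 in WT, against mock medians of 9.72, 9.05 and 9.78. The mean was then highest in mock and lowest at 16 h in every line, so its peak at 3 h rests on the deposited scale. It was 27.9, 26.6 and 18.4 in KO, 29.1, 28.5 and 18.5 in rescue and 23.2, 20.9 and 14.5 in WT. With 1 library each, none of these steps has a replicate check within a line.

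Taken member by member on the deposited scale, the median log2 change at 16 h against 3 h was 0.22 in KO, 0.38 in rescue and -0.64 in WT. The other active starts gave 0.28, 0.38 and -0.42 for the same lines, so the direction in each line was shared with them. It also rests on the scaling: with trimmed-mean scaling the members' medians were -0.03 in KO, -0.002 in rescue and -0.25 in WT. Those of the other active starts were 0.02, -0.0002 and -0.03, small values that follow from how that scaling is made. On the deposited scale, in WT, 568 of 724 members were lower at 16 h than at 3 h, against 291 in KO and 266 in rescue; with trimmed-mean scaling 446 were lower in WT, 381 in KO and 365 in rescue. A pattern of higher in KO and rescue but lower in WT was seen on the deposited scale in 226 members (31.2%) and in 32.9% of other active starts. On the same scale a drop of at least 2-fold in WT was seen in 252 members (34.8%), and in 22.5% of the other active starts.

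**Figure D2:**
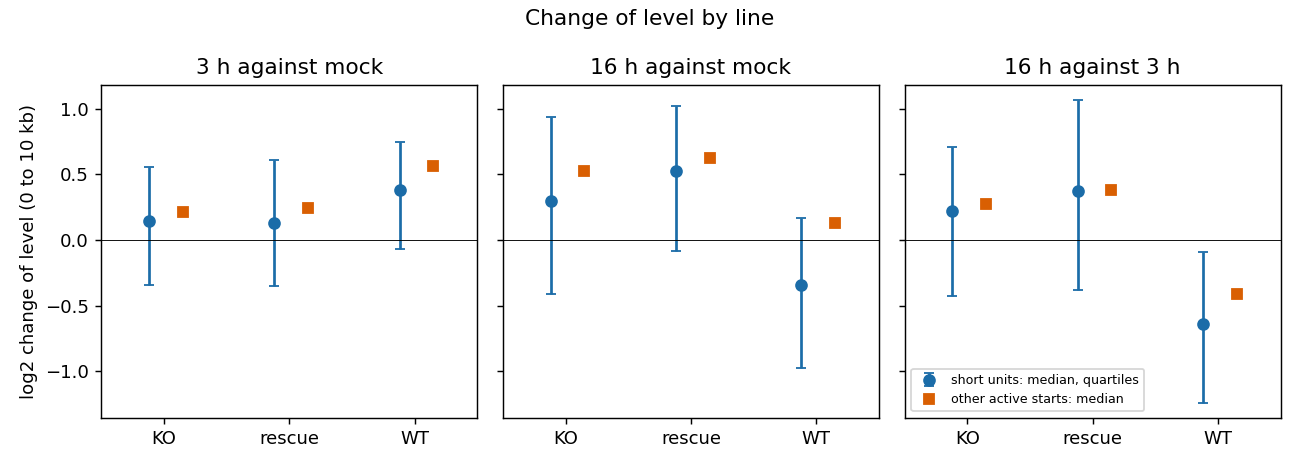
Median log2 change of the level (0 to 10 kb) of short units with quartiles, and the median of other active starts, for KO, rescue and WT; the panels show 3 h against mock, 16 h against mock and 16 h against 3 h. At 16 h against mock the short units stood at 0.30 in KO, 0.53 in rescue and -0.34 in WT, each below the other active starts. With trimmed-mean scaling the medians were -0.18 in KO, -0.08 in rescue and -0.45 in WT, so the sign in KO and rescue depends on the scaling.

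The comparison of 16 h with 3 h asks which units differed between late and early times after UV in a way the 3 lines had in common. It used limma with line as a block, and no mock library enters the difference. Of the 724 members, 717 passed the filter of a mean level of at least 1 and 7 did not. At a Benjamini-Hochberg adjusted p under 0.05, 184 members were called (25.7%), where 17.8% of all 3508 identifiers tested were. Of these, 120 were lower at 16 h (16.7%, against 9.18% of all identifiers), and 64 were higher (8.93%, against 8.67%, a share near the background). The other 533 members tested did not pass. The background of all identifiers includes the members and is not matched for mock signal. Lower calls rose with mock signal among all identifiers too, as given below. The median over the members was 0.01 and over all identifiers tested 0.12. With line as a block, the error is how far the lines disagreed on the change, mixed with library noise, not the spread between repeated cultures. Most of it was shared over all identifiers, with 76.0 prior against 4 residual degrees of freedom, and the mock libraries entered it.

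The number of lower and higher calls depended on which lines were used, for the members and for all identifiers alike. Without WT, 86 members were lower (12.0%, with 6.90% of all identifiers) and 129 were higher (18.0%, with 15.7%), so higher calls outnumbered lower ones in both. Without KO, 90 were lower (12.6%, with 7.10% of all) and 24 higher (3.35%, with 4.62%). Without rescue, 65 were lower (9.07%, with 4.56% of all) and 9 higher (1.26%, with 1.62%). In each of these fits the share of lower members was above that of all identifiers, whereas the share of higher members was above it only without WT. These shares too are not matched for mock signal. Without the shallow KO 3 h library, 90 members were lower (12.6%, with 7.04% of all) and 33 higher (4.6%, with 5.39%). With trimmed-mean scaling 157 were lower (21.9%, with 13.1% of all) and 70 higher (9.76%, with 8.84%). Among the 352 members that were quiet on all 3 stretches, 75 were lower (21.5% of 349 tested, with 9.18% of all) and 25 were higher (7.16%, with 8.67%).

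The 120 lower members were strong units. Their median mock signal from 0 to 5 kb was 23.7, and their median log2 change was -1.56, with a range from -4.11 to -0.93. In 116 of them the change had the same direction in all 3 lines, and 24 were over 4-fold lower. The same 3 h and 16 h libraries made these calls, so their course against mock is a description, given on the deposited scale. Of the 120, 74 were above mock at 3 h in every line, 78 were below mock at 16 h in every line, and 34 did both. By line, their median log2 change at 3 h against mock was 0.52 in KO, 0.64 in rescue and 0.57 in WT, and at 16 h it was -0.95 in KO, -0.68 in rescue and -1.45 in WT. The divisors of trimmed-mean scaling were larger at 3 h than in mock in every line, in WT 1.33 against 0.94. The rises at 3 h would be smaller on that scale.

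The 64 higher members were weaker, with a median mock signal of 5.28 and a median log2 change of 1.28. In every line the 3 h library was shallower than the 16 h library, and what that does to weak units was not tested. Of these, 51 moved in the same direction in all lines. On the deposited scale, 32 of them were below mock in every line at 3 h, and 37 were above mock in every line at 16 h. Their median log2 change at 16 h against 3 h was 1.54 in KO, 1.82 in rescue and 0.59 in WT.

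Sorted by mock signal, the calls ran from mostly higher to mostly lower, and so did those of all identifiers in the same ranges of mock signal. Of the 4 equal groups, the weakest members (mock signal from 2.04 to 5.37) had 33 higher and 16 lower calls, or 19.0% and 9.20%, with 12.9% and 4.03% of all identifiers in that range. In the next group 18 were higher and 15 lower (9.94% and 8.29%, with 6.86% and 6.52% of all). In the one above it 10 were higher and 31 lower (5.52% and 17.1%, with 3.51% and 13.1% of all). In the strongest group, from 25.05 up, 3 were higher and 58 lower (1.66% and 32.0%, with 1.59% and 28.6% of all). The members' shares were at or above those of all identifiers in each range, and no test of that difference was run. On the deposited scale the median change of the strongest group was negative in every line, at -0.08 in KO, -0.20 in rescue and -1.16 in WT. Units that ended within 5 kb had 7 higher and 28 lower calls among 113 tested, or 6.19% and 24.8%, those that ended within 10 kb had 11.5% and 18.0%, and those that tapered had 8.55% and 14.0%. All of these stand beside 8.67% and 9.18% of all identifiers, which are not matched for mock signal. For the units that ended within 5 kb the WT median for 16 h against 3 h was -0.79 on the deposited scale, against -0.59 for the 423 that tapered.

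**Figure D3:**
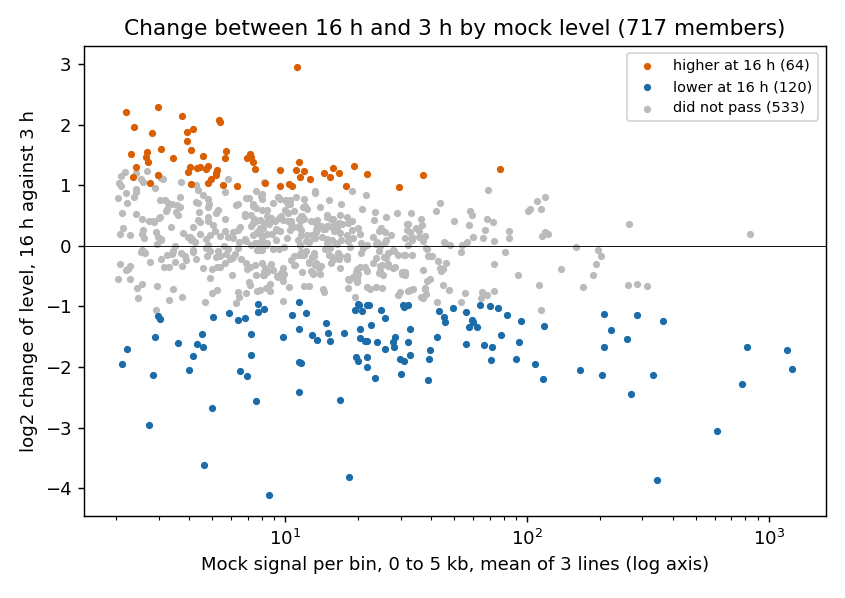
Log2 change of the level at 16 h against 3 h for the 717 short units tested, plotted against their mock signal from 0 to 5 kb on a log axis; each point is 1 unit. The 64 higher units lie mainly at low mock signal, and the 120 lower units mainly at high mock signal.

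The 2 members with the largest gain and the 2 with the largest loss, among those called, moving the same way in all lines and with a mean level of at least 2, show the range. The unit uc021rov.2 had levels of 3.13 in KO, 7.28 in rescue and 8.95 in WT at 16 h, against 0.293, 1.12 and 0.882 for the same lines at 3 h, and 8.77, 6.58 and 9.58 in mock. It was lowest at 3 h in every line, and the 16 h and 3 h libraries did not overlap. The KO value at 3 h amounts to 3 of that library's smallest steps and is poorly measured. Its log2 change was 2.95 (SE 0.38, limma adjusted p = 8.16e-09). The unit uc002iui.4 had 2.26 in KO, 3.73 in rescue and 3.32 in WT at 16 h, and 0.293, 0.146 and 2.66 at 3 h. The 3 h values of KO and rescue amount to 3 of the smallest steps each, so they too are poorly measured; WT at 3 h exceeded KO at 16 h, so the times overlapped. Its log2 change was 2.29 (SE 0.50, limma adjusted p = 4.63e-04), and without the rescue line it was 1.45 (adjusted p = 0.11).

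On the other side, uc057vwh.1 had 0.453 in KO, 0.797 in rescue and 0.441 in WT at 16 h, against 15.4, 6.25 and 14.0 at 3 h, and 8.82, 5.47 and 6.90 in mock. On the deposited scale every line was above mock at 3 h and far below it at 16 h. The rise in rescue depends on the scaling, with trimmed-mean divisors of 0.77 in rescue mock and 0.90 in rescue at 3 h. Its log2 change for 16 h against 3 h was -4.11 (SE 0.38, limma adjusted p = 1.27e-14). The unit uc002rne.3 was over 3 times as strong in mock KO and rescue as in WT, at 342 and 393 against 93.3. At 16 h it had 32.0 in KO, 23.7 in rescue and 7.94 in WT, against 421, 440 and 104 at 3 h. The loss was thus of like size in all 3 lines despite the different starting levels (log2 change -3.87, SE 0.38, limma adjusted p = 2.81e-13).

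**Figure D4:**
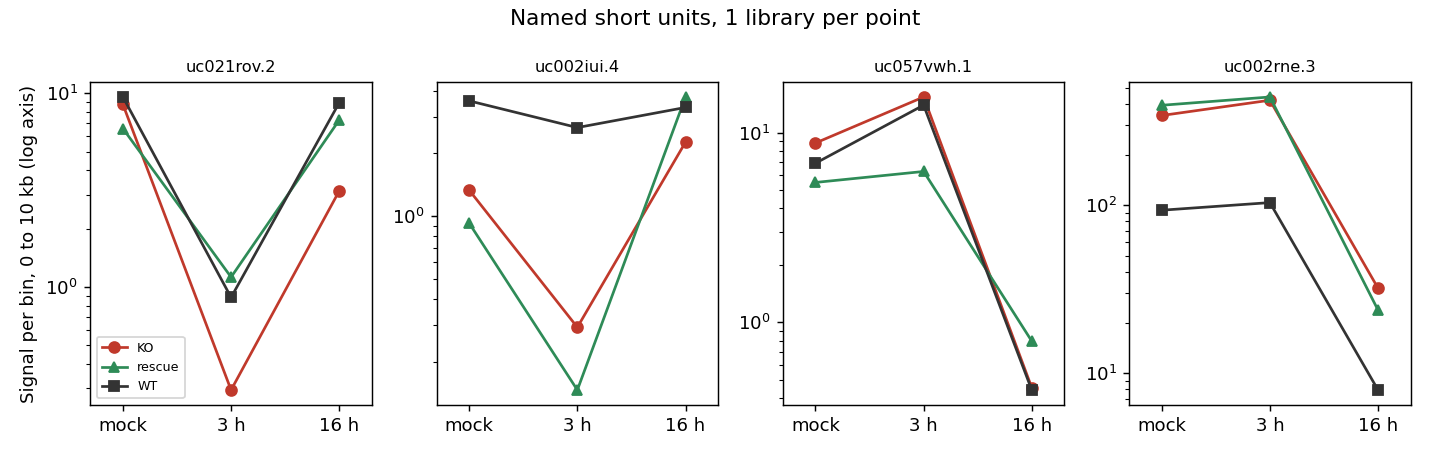
Level (0 to 10 kb, log axis) of the 4 named units in mock, 3 h and 16 h libraries; each point is 1 library of KO, rescue or WT. The first 2 panels dip at 3 h, least in WT for uc002iui.4, and the last 2 drop at 16 h in every line.

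The levels against mock are a description, because mock signal chose the members, and nothing is read from their calls. At 3 h, 105 of 717 members passed the limma threshold (14.6%, with 18.9% of all identifiers). Of them 65 were higher (9.07% of members tested, background 13.5%) and 40 lower (5.58%, background 5.36%). At 16 h, 186 members passed (25.9%, with 27% of all identifiers). Of those, 102 were higher (14.2% of members tested, background 20.4%) and 84 lower (11.7%, background 6.53%). These directions rest on the scaling. With trimmed-mean scaling the median change of all identifiers was -0.01 at 3 h, against 0.30 with the deposited scaling, and 0.03 at 16 h, against 0.42. That scaling makes the median change of all identifiers small by construction. At 3 h the members then split into 35 higher (4.88%, with 7.04% of all) and 73 lower (10.2%, with 8.78%). At 16 h they split into 39 higher (5.44%, with 8.44% of all) and 165 lower (23.0%, with 13.2%).

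When members were instead chosen on the mock libraries of the other lines, so that a line's own mock was not used to choose them, the medians were close to those above. Most were the same members (694 for KO, 708 for rescue and 626 for WT), so close medians are no separate check. KO and rescue share a knockout, and the mock of each still helped choose the members for the other. For 16 h against mock they were 0.35 in KO (730 members), 0.54 in rescue (757 members) and -0.36 in WT (636 members). The other active starts under those rules had 0.52, 0.63 and 0.13. The members lay below the other active starts in each line, most of all in WT; the signs against 0 rest on the deposited scale.

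Short units are 9.12% of the identifiers and 24.4% of the active starts, and they held a large part of the signal near starts. The rule asked for mock signal, so a share above 9.12% is partly built in. Of the 0 to 10 kb signal of active starts alone, short units held 45.4% in KO mock, 45.1% in rescue mock and 41.9% in WT mock. In KO their share of the 0 to 10 kb signal of all identifiers was 43.5% in mock, 40.3% at 3 h and 33.7% at 16 h. In rescue it was 43.3%, 38.9% and 36.8% in the same order, and in WT it was 40.1%, 35.3% and 31.9%. The share was lower at each later time in all 3 lines. The difference from mock averaged -4.11 ± 0.86 percentage points at 3 h and -8.18 ± 1.58 at 16 h (SD over 3 lines). Mock signal chose the members, so a lower share after UV carries no test. Of the 0 to 100 kb signal, to which the gene bodies of long genes contribute, their share was higher at 3 h than in mock in every line, by 0.90 ± 0.24 points on average, and at 16 h it was lower in every line, with a mean difference of -1.43 ± 1.01 points. The choice of denominator thus turns the sign at 3 h.

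A few units carried much of the signal. In mock, 32 members held 50% of the members' signal in KO and in rescue, and 57 did in WT. At 16 h it took 75 in KO, 66 in rescue and 76 in WT. The 5 strongest members made up 8.72% of all 0 to 10 kb signal in mock KO, 6.20% at 3 h and 2.46% at 16 h. In WT they made up 4.43%, 2.91% and 2.42%. Without them the members' share was still lower at each later time in every line, at 38.1%, 36.4% and 32.1% in KO, at 38.2%, 35.8% and 34.2% in rescue and at 37.4%, 33.4% and 30.2% in WT.

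The strongest unit of all had levels of 176 in KO, 271 in rescue and 41.0 in WT at 16 h, against 747, 650 and 281 at 3 h, a log2 change of -2.04 (SE 0.44, limma adjusted p = 4.40e-04). The groups of libraries did not overlap. The third strongest went another way, with 450, 945 and 612 at 16 h and 586, 508 and 576 at 3 h. Its values were higher at 16 h in rescue and WT and lower in KO, and it did not pass (log2 change 0.20, adjusted p = 0.826). The other 3 of the top 5 were lower at 16 h in every line, by 1.66 to 2.28 on the log2 scale, and all passed.

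**Figure D5:**
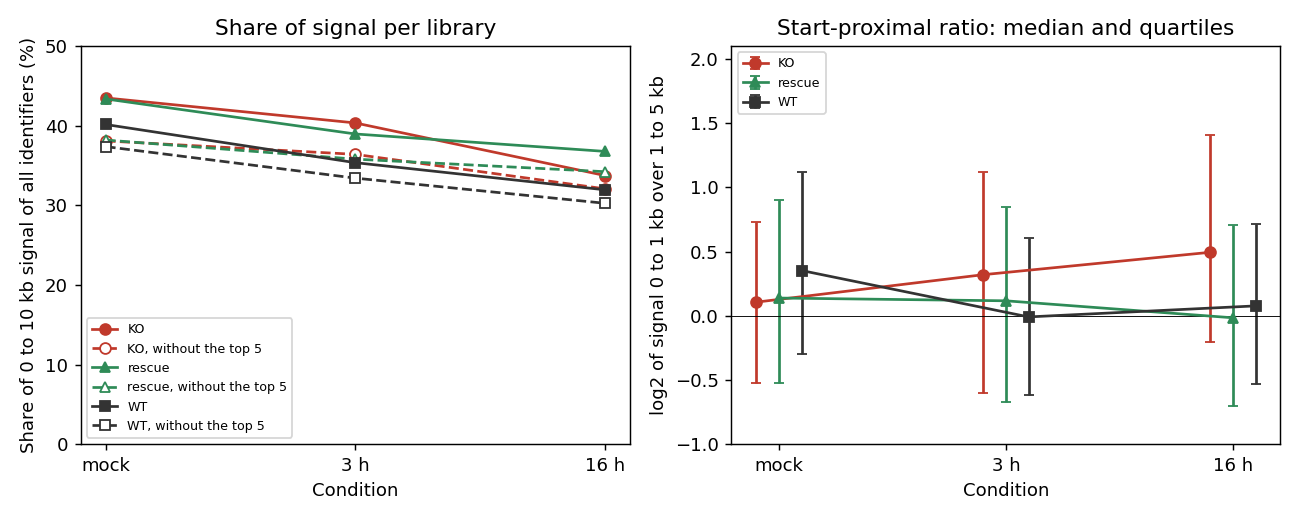
Left, the share of the 0 to 10 kb signal of all identifiers held by short units in each library, with (filled) and without (open) the 5 strongest members. Right, the median and quartiles over 704 members of the log2 start-proximal ratio, the signal from 0 to 1 kb over that from 1 to 5 kb. The share steps down with time in each line; the ratio of KO is highest at 16 h (0.49) and that of WT is highest in mock (0.35).

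The start-proximal ratio asks whether new RNA sat nearer the start after UV. It is the log2 of the signal from 0 to 1 kb over that from 1 to 5 kb, each plus 1, in the 704 members with a mean of at least 1 in both windows. Mock signal from 0 to 5 kb chose the members by its mean, not by its split between these windows. Ratios set against mock thus share the mock libraries with that choice. In KO the median ratio was 0.11 in mock, 0.32 at 3 h and 0.49 at 16 h. In rescue it was 0.14, 0.12 and -0.02, and in WT 0.35, -0.01 and 0.08. By these medians KO signal was more start-proximal at each later time, and the signal of the other lines was less so at 16 h than in mock. The other active starts showed the same order of lines at 16 h, with 0.42 in KO, -0.11 in rescue and -0.02 in WT.

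At 16 h the ratio was higher in KO than in WT for 540 of 704 members, with a median difference of 0.47, and higher in rescue than in KO for 122, with a median difference of -0.58. The other active starts gave 0.42 and -0.54. In mock the KO ratio lay below the WT ratio, by a median difference of -0.27. Each difference rests on 1 library against 1, and KO at 16 h was 5.05 times shallower than WT at 16 h.

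No member passed any test of the ratio over the 3 lines. With limma and line as a block, 0 of 704 members were called at 3 h against mock (0% of all 3262 identifiers tested), with 44 members (6.25%) at an unadjusted p under 0.05, as 10.3% of all identifiers were. At 16 h against mock 0 were called (0% of all), with 29 (4.12%, with 4.41% of all) at that unadjusted level. At 16 h against 3 h 0 were called (0% of all), with 58 (8.24%, with 9.20% of all). The members' shares at the unadjusted level were thus no higher than those of all identifiers. The medians over members were -0.12, 0.01 and 0.12 for these comparisons, and -0.17, -0.04 and 0.13 over all identifiers. Disagreement between lines on the change is part of the error here, and the line medians did not share a direction in each comparison.

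A change particular to KO was tested with KO-by-time terms, which leaves 2 residual degrees of freedom and takes the KO libraries to vary like the others. For the level at 16 h against 3 h, 0 of 717 members were called (0.114% of all identifiers, or 4, were), with 37 members (5.16%) at an unadjusted p under 0.05, as 6.44% of all were. For the start-proximal ratio at 16 h against mock, 0 of 704 members were called (0% of all), with 100 (14.2%) at that level, as 15.1% of all were. The median KO-particular ratio change was 0.68 over the members, 0.70 over the other active starts and 0.66 over all identifiers tested, and the difference between these medians was not tested. In single units no such change was detectable with this design.

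Behind the units, from 15 to 50 kb, signal was low but moved. Summed over members in KO, it was 2.51% of the 0 to 5 kb signal in mock, 1.71% at 3 h and 3.02% at 16 h. In rescue it was 2.46%, 1.96% and 3.27%, and in WT 2.19%, 1.62% and 4.96%. In every line it was lowest at 3 h and highest at 16 h. Mock signal chose the members for a quiet stretch here, so the steps from mock are a description. The summed signal at 16 h over 3 h was 1.39 in KO, 1.36 in rescue and 1.51 in WT. The other active starts gave 1.06, 1.15 and 1.22 for the same lines. Taken start by start, the median log2 change was 0.40 in KO, 0.36 in rescue and 0.34 in WT for members. For other active starts it was 0.08, 0.58 and 0.84, so by medians the members lay above them only in KO. In 312 members (43.1%) this stretch was higher at 16 h than at 3 h in all 3 lines, as in 38.0% of other active starts and 23.9% of inactive ones. These values cannot tell longer transcripts of the unit from other transcription in the same window.

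By the rule's own limit of 10%, 175 members (24.2%) were no longer quiet behind in WT at 16 h, against 24 in WT at 3 h and 17 in WT mock. In KO the counts were 81 at 16 h, 79 at 3 h and 65 in mock, and in rescue 85, 86 and 90. The rule applied this limit to the mock mean, so counts set against mock are a description. Other active starts, which the rule put over the limit, give no comparison. The WT count combines more signal behind with less signal at the start. From 5 to 10 kb the median signal relative to 0 to 5 kb was 31.8% in mock, 33.9% at 3 h and 46.0% at 16 h in WT, while KO had 41.5%, 28.2% and 29.2%. Rescue had 39.4%, 36.5% and 39.9%, so after UV this stretch was lowest in KO, while from 15 to 50 kb the summed signal at 3 h was lowest in WT.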

How the data were processed

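BrU-seq of 9 libraries was used, 1 for each line and condition, grouped by their titles. STAR 2.7.7a, HOMER 4.8.2, Trim Galore 0.6.5, FastQC 0.11.9 and R 4.0.5 are listed in the submitters' processing notes; roles and strand use in counting are not given in the sources used here. The deposited signal is coverage in 200-bp bins around annotated starts, per the file headers, scaled by the authors to similar totals; the averaged tables were not used. The members and all lists and tests were chosen with earlier results of these data known. Tests used limma 3.58.1 in R 4.3.3 (trend, Benjamini-Hochberg, 0.05) on log2 values of every identifier whose level averaged 1 or more, with line as a block (4 residual degrees of freedom). The lines stand in for repeats, so p-values may reflect technical spread. Windows were called overlapping at a profile correlation of at least 0.75. Units named are the 2 highest and 2 lowest by log2 change among members called at 16 h against 3 h with a mean level of at least 2 and the same direction in all lines. The fits were tested on simulated data. Alternatives covered filters, pseudocounts, scaling, windows, left-out lines and other member rules.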

Additional observations from a re-analysis of the deposited data

Results flagged for a closer look

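In several measures the median over the short units had one sign in KO and the other in WT, and each line had 1 library per condition. The median log2 change of the level at 16 h against 3 h was 0.22 in KO and -0.64 in WT, and at 16 h against mock it was 0.30 in KO and -0.34 in WT. For the level this split holds on the deposited scale only: with trimmed-mean scaling, in an alternative added after seeing the data, the medians were -0.03 in KO and -0.25 in WT at 16 h against 3 h, and -0.18 and -0.45 at 16 h against mock. The median log2 change of the start-proximal ratio at 3 h against mock was 0.20 in KO and -0.43 in WT, and at 16 h against mock it was 0.43 in KO and -0.28 in WT. The other active starts had the same split for the ratio, with 0.12 in KO and -0.49 in WT at 3 h and 0.44 and -0.34 at 16 h. Their level on the deposited scale split likewise at 16 h against 3 h (0.28 and -0.42) but not at 16 h against mock (0.53 and 0.13). The differences between KO and WT medians were not tested as such, and not every member moved with its line's median. The member-by-member tests of the KO-particular change called no member, as given above.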

How the results depend on the processing

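By replicate number, no paired analysis was possible because each line and condition has 1 library; the fits paired conditions by line instead. Of the 15 alternatives to the 184 members called at 16 h against 3 h, 9 stayed within 1.5 times. Calls came to 24 of 724 members without the level filter, where all identifiers had 138 of 7936. The 6 libraries after UV alone gave 92 of 717 (all: 284 of 3508), and no line block gave 74 of 717 (254 of 3508). Among members quiet on all 3 stretches, a choice made after seeing the data, 100 of 349 were called (626 of 3508). Leaving out each line gave 74 to 215 members, with 217 to 794 of all 3508. Trimmed-mean scaling turned the median level change to -0.088 at 3 h and -0.23 at 16 h against mock, from 0.23 and 0.17. For the ratio, 1 member was called without the filter at 3 h against mock (2 of all 7936 identifiers). With a pseudocount of 4, 1 was called at 16 h against mock (2 of all 3262) and 2 at 16 h against 3 h (3 of all 3262). The mean share difference from mock at 3 h was -1.28 points at a limit of 20%, 0.90 with the 0 to 100 kb denominator and -2.68 without the 5 strongest members; at 16 h it was -6.15 at a limit of 5%, -1.43 with that denominator and -5.70 without the 5 strongest. Limits of 5% and 20% gave 480 and 1260 members. Without the level filter, uc021rov.2 (adjusted p = 0.0542) and uc002iui.4 (0.19) no longer passed, nor did uc002iui.4 without the line block (0.0663). The unfiltered fit tests 7936 identifiers in place of 3508, and its unadjusted p-values were higher too (211 members under 0.05, against 270; prior degrees of freedom 0.87, against 76.0). KO at 3 h, the shallowest library, limits weak units most.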
